A study of Mus musculus with 2 samples.

Results

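The collagen chain genes are the mouse genes whose symbol is Col, a number, the letter a and a second number, which is 44 of the 32285 genes in the deposited matrices. Their levels were compared between cell classes of the embryonic peripheral retina in 2 single-cell RNA libraries, 1 labelled albino and 1 labelled pigmented. Both come from E13.5 mouse embryos carrying α-Cre and a TdTomato reporter. This Cre acts in the peripheral part of the neural retina, which includes the ciliary margin, and TdTomato-positive cells were sorted after papain digestion of optic cups. Each library pools 3 embryos, so pigmentation, strain, embryo pool and library cannot be told apart and no difference between the libraries has a replicate check. The albino library has the strain label Swizz ICR. The pigmented library has the strain label Tyrc2j, which is the usual name of a tyrosinase mutation that causes albinism and goes against its title. Groups were taken from the titles, and every albino over pigmented ratio would be turned round if the 2 libraries were swapped.

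Collagens are trimers wound from chains that are often products of different genes, so the genes of partner chains are read together. Fibrillar collagens (types I, II, III, V and XI) form fibres, FACIT collagens such as type IX sit on the surface of those fibres, and type IV collagen makes the network of basement membranes. In the eye, types II, IX, V/XI and XVIII are known components of the vitreous and the inner limiting membrane, and the ciliary epithelium is a known source of vitreous proteins. Types I and III are typical of connective tissue made by mesenchyme around the eye.

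The promoters of a few members are shown first, chosen from the genes higher in the ciliary margin, in progenitors and in mesenchyme. The windows are the 250 bases before the RefSeq transcription start (GRCm38.p6), written 5′ to 3′ on the gene's strand, all without an annotated exon in the window. Capitals mark matches on either strand to the TATA box motif TATAAA, to the box motif CCAAT, which reads ATTGG on the opposite strand, or to the GC box motif GGGCGG, which reads CCGCCC on the opposite strand. The homeodomain core TAATTA was searched too and had no match in these 4 windows.
Col9a1 (higher in the ciliary margin, chr1:24177360-24177609, plus strand): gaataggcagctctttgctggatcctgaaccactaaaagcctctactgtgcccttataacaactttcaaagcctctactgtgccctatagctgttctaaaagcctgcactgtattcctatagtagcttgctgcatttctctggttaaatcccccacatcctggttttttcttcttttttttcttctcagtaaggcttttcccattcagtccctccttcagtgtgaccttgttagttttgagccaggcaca
Col11a1 (higher in the ciliary margin, chr3:114030290-114030539, plus strand): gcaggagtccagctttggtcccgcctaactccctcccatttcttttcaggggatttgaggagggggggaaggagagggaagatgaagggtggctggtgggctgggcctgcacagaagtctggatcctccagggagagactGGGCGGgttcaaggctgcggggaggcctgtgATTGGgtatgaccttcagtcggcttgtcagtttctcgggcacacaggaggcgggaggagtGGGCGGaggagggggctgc
Col23a1 (higher in progenitors, chr11:51289670-51289919, plus strand): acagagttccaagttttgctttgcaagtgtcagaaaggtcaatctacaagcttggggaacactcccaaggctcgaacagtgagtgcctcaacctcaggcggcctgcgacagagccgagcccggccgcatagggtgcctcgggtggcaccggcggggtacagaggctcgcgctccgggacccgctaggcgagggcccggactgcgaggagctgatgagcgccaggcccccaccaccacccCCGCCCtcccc
Col3a1 (mesenchyme, chr1:45311288-45311537, plus strand): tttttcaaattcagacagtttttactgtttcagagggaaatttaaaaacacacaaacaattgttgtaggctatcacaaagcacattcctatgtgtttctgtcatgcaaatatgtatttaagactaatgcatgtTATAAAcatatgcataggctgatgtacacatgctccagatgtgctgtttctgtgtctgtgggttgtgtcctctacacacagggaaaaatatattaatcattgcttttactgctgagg

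The Col9a1 window, upstream of the start of the long transcript, had none of these motifs, and a second RefSeq window of the gene (chr1:24194953-24195202), which overlaps an annotated exon and is not shown, held 1 CCAAT. The Col11a1 window held 1 CCAAT and 2 GGGCGG, the Col23a1 window 1 GGGCGG near its end, and the Col3a1 window 1 TATAAA. Over the 32851 RefSeq promoter windows of the same length, 12.37% held TATAAA, 33.85% CCAAT, 32.74% GGGCGG and 4.84% TAATTA, so none of these matches is rare. RefSeq windows were found for 35 of the 44 members, and a match is a description of the letters only.

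The libraries hold 46271969 UMIs in 3676 barcodes (albino) and 69965728 UMIs in 6089 barcodes (pigmented), and 3462 albino and 5672 pigmented cells were kept, with medians of 11180 and 10290 UMIs. The libraries shared 8 barcode sequences. Cells were grouped into clusters without any collagen gene and named from marker lists that hold no collagen gene. This gave 330 albino and 733 pigmented cells of a ciliary margin zone (CMZ)-like class, 1097 and 2088 retinal progenitor (RPC)-like cells, 598 and 1084 neurogenic-like cells, and 748 and 646 retinal ganglion cell (RGC)-like cells. There were also 127 and 210 mesenchyme-like cells, and 52 and 2 surface ectoderm-like cells. The names were set by each cluster's markers relative to all other cells, not by absolute levels. The summed level of the 10 CMZ markers was 1025 CPM in albino and 1192 CPM in pigmented CMZ-like cells, against 230.1 and 227.7 CPM in RPC-like cells and 1963 and 1987 CPM in the small retinal pigment epithelium (RPE)-like class (CPM, UMIs of a gene scaled to 1000000 UMIs of the class in that library). Mesenchyme-like cells also held 591.8 CPM (albino) and 655.4 CPM (pigmented) of the CMZ markers. The 11 mesenchyme markers summed to 2200 CPM in albino and 2137 CPM in pigmented mesenchyme-like cells, against 3.501 and 4.897 CPM in RPC-like cells. The sexes of the pools differed, since 96.07% of albino and 29.28% of pigmented cells had Xist UMIs and no Y-linked UMI. A total of 326 albino and 578 pigmented cells stayed unnamed.

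Collagen RNA was unevenly spread over the classes. All 44 genes together made up 2777 CPM in albino and 3174 CPM in pigmented mesenchyme-like cells, 701.5 and 802.6 CPM in CMZ-like cells, 499.2 and 541.3 CPM in RPC-like cells, 152.4 and 175.6 CPM in neurogenic-like cells, and 52.9 and 56.9 CPM in RGC-like cells. Each class in that order was lower than the one before it in both libraries. Smaller classes are not in that order. Among them, RPE-like cells had 737.4 CPM in albino and 700.6 CPM in pigmented cells, and amacrine/horizontal-like cells 279.6 and 187.8 CPM. Surface ectoderm-like cells had 250.1 and 884.8 CPM. Of the 44 genes, 41 had at least 1 UMI in kept cells, 36 had at least 20 and 23 had at least 200. Col6a4, Col6a5 and Col28a1 had none, and Col20a1, Col5a3, Col6a6, Col4a3 and Col10a1 had between 3 and 13 UMIs. The other 13 members held between 23 and 177 UMIs and are named below only where a result turns on them. Among the 36 genes with at least 20 UMIs, 23 were highest in the same named class in both libraries, of which 16 were highest in mesenchyme-like, 5 in RPE-like and 2 in CMZ-like cells. The last 2 are Col9a1 and Col2a1. No share of all genes is given beside these counts, so they are not read as a trait of collagens. The RPE-like class is small, with 16 albino and 44 pigmented cells. UMIs were counted on 3′ tags, which do not scale with gene length, so levels of different genes are compared per UMI only.

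**Figure D1:**
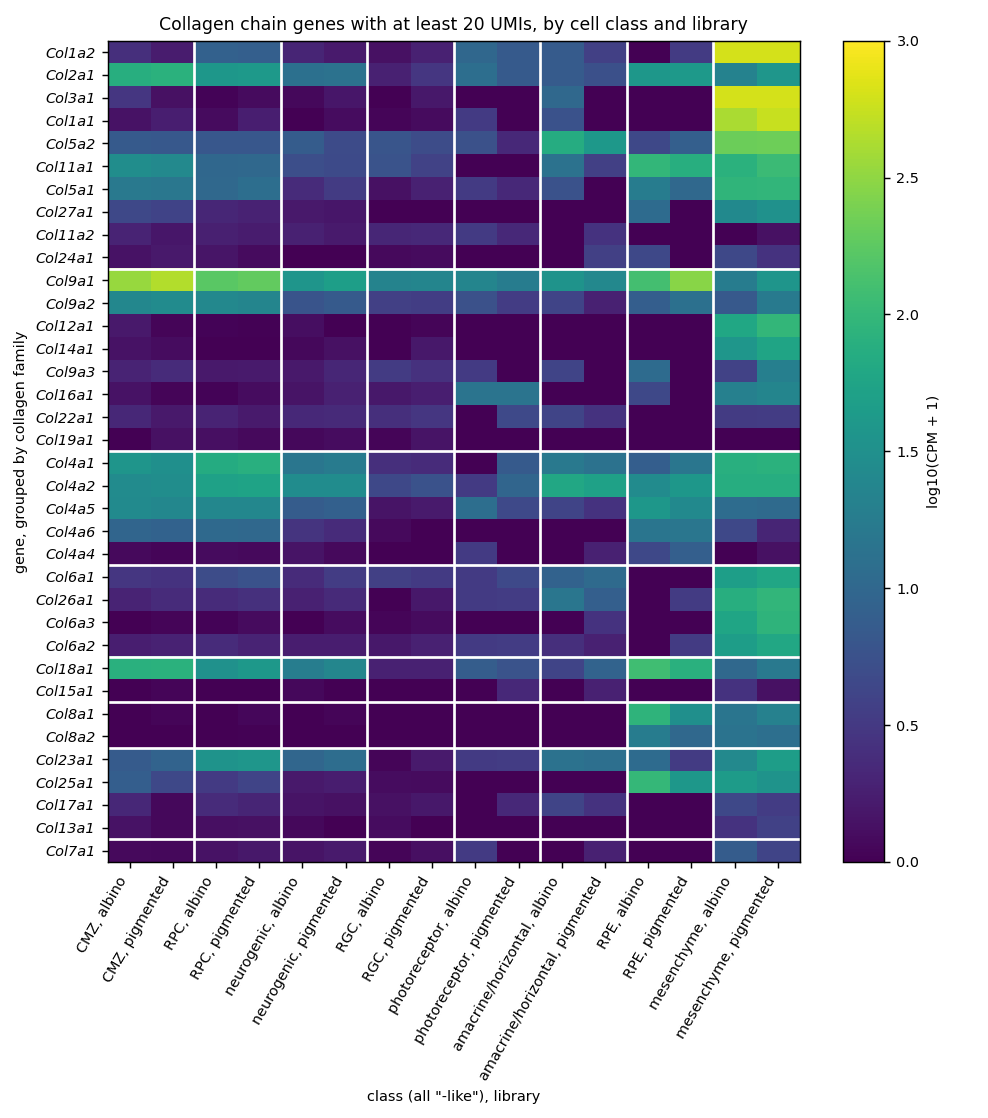
Level of each of the 36 collagen chain genes with at least 20 UMIs (rows, grouped by family) in 8 named cell classes and 2 libraries (columns), as log10(CPM + 1). The bright block at the right is fibrillar and type VI RNA in mesenchyme-like cells, and Col9a1 is the brightest row in CMZ-like and RPC-like cells.

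A gene was counted as higher or lower between classes where its CPM ratio was at least 2 in that direction in each library, among genes with at least 20 UMIs over the compared classes in each library. Intervals are exact 95% intervals and cover counting error only. With 1 library per group there is no test, and agreement of the libraries is given in its place.

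In CMZ-like against RPC-like cells, 4 of 19 measured collagen genes were higher (2.32% of all genes by the same rule) and 3 were lower (2.73% of all genes). The higher ones were Col9a1, Col11a1, Col18a1 and Col27a1, and the lower ones Col1a2, Col6a1 and Col23a1. The median log2 ratio of the 19 was -0.07 in the albino and -0.03 in the pigmented library, against -0.03 and -0.07 over all genes. Col2a1 on the higher side and Col4a1 and Col4a2 on the lower side lay just outside the rule. When collagen genes were allowed in the clustering, 2 members were higher in place of 4, since Col9a1 and Col18a1 came out just under 2-fold in at least 1 library (lowest Col9a1 ratio 1.85), and with at least 1000 genes per cell 5 were lower in place of 3.

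Col9a1 encodes the α1 chain of type IX collagen, a FACIT collagen that coats type II fibrils, and lies on chromosome 1 (24177610 to 24252684, GRCm38). It was the most abundant collagen gene with 15742 UMIs, and made up 49.14% of all collagen UMIs of albino and 56.56% of pigmented CMZ-like cells. It had 344.7 CPM in albino CMZ-like cells against 169.7 CPM in albino RPC-like cells, a ratio of 2.03 (1.91 to 2.16). In the pigmented library it had 454.0 CPM in CMZ-like and 187.0 CPM in RPC-like cells, a ratio of 2.43 (2.33 to 2.53). It fell to 35.3 CPM in albino and 47.2 CPM in pigmented neurogenic-like cells, and to 20.9 and 22.5 CPM in RGC-like cells. After each cell was thinned to 5800 UMIs, 68.4% of albino and 78.3% of pigmented CMZ-like cells had a Col9a1 UMI, against 49.9% and 54.2% of RPC-like cells. RGC-like cells, where the gene is low, had a UMI in 10.9% of albino and 9.25% of pigmented cells. Without thinning these shares were 81.5% and 89.0% in CMZ-like cells (medians of 13870 and 14460 UMIs), 65.5% and 67.3% in RPC-like cells (10380 and 9744 UMIs), and 19.9% and 21.7% in RGC-like cells (14230 and 13480 UMIs). Col19a1, which lies 9205 bases away on the opposite strand and encodes another FACIT chain, had 23 UMIs in all.

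The partner chains of Col9a1 did not pass the rule. Col9a2, the α2 chain, had 23.2 CPM in albino and 27.3 CPM in pigmented CMZ-like cells, against 24.4 and 22.0 CPM in RPC-like cells, which gives ratios of 0.954 (0.766 to 1.18) and 1.24 (1.07 to 1.43). The number of Col9a1 UMIs per Col9a2 UMI was therefore 14.8 in albino and 16.6 in pigmented CMZ-like cells, against 6.97 and 8.50 in RPC-like cells. Col9a3, the α3 chain, was close to the limit of detection in the retina, with 5 UMIs in albino and 15 in pigmented CMZ-like cells. Its annotated exons overlap those of Tcfl5 on the opposite strand.

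**Figure D2:**
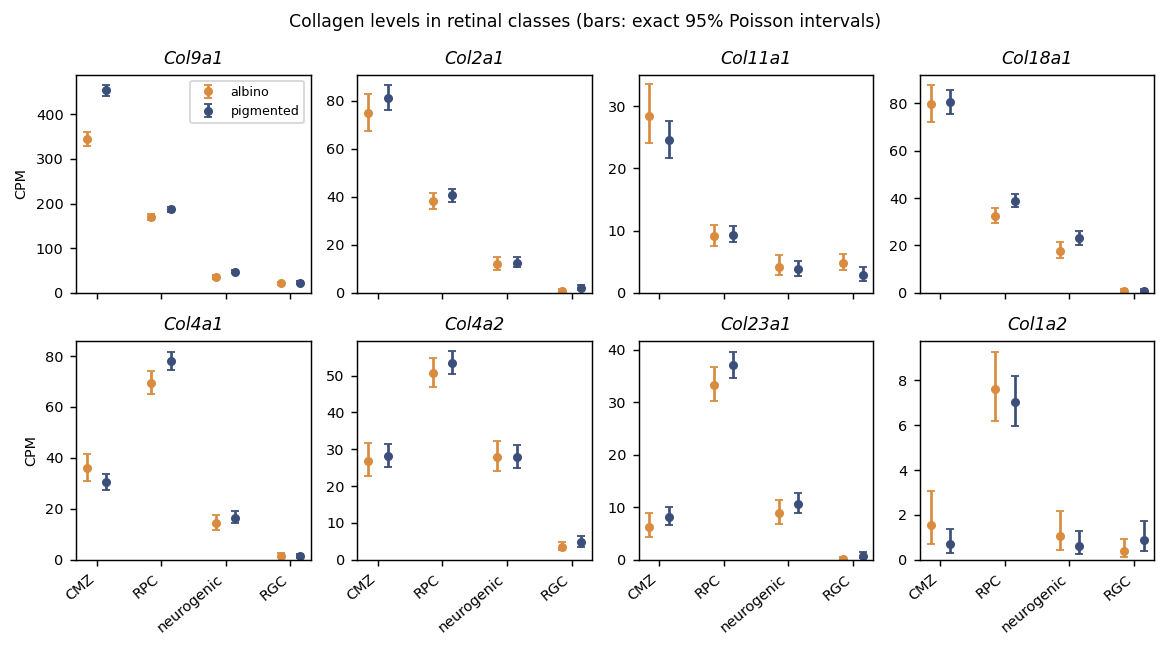
CPM of 8 collagen genes in CMZ-like, RPC-like, neurogenic-like and RGC-like cells of the albino and pigmented library, with exact 95% Poisson intervals. Col9a1, Col2a1, Col11a1 and Col18a1 are highest in CMZ-like cells, Col4a1, Col4a2, Col23a1 and Col1a2 in RPC-like cells, and all 8 are lower in RGC-like than in RPC-like cells of the same library.

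Col11a1, a fibrillar chain that joins type II collagen in fine fibrils, had 28.5 CPM in albino and 24.5 CPM in pigmented CMZ-like cells, against 9.10 and 9.35 CPM in RPC-like cells. Its ratios were 3.13 (2.44 to 4.03) and 2.62 (2.19 to 3.15). Col2a1, the only chain of type II collagen, had 74.8 and 81.2 CPM in CMZ-like cells against 38.2 and 40.6 CPM in RPC-like cells. With ratios of 1.96 (1.71 to 2.24) in the albino and 2.003 (1.83 to 2.20) in the pigmented library it missed the rule in 1 library by a small margin. Col5a1, the α1 chain of type V collagen, had 15.2 and 14.7 CPM against 9.34 and 11.1 CPM, with ratios of 1.63 (1.21 to 2.19) and 1.32 (1.08 to 1.61). Col5a2, its α2 chain, had 6.05 and 5.67 CPM in CMZ-like cells against 5.45 and 5.48 CPM in RPC-like cells, with intervals that include 1. Col27a1, another fibrillar chain, passed the rule on few UMIs, with 18 albino and 35 pigmented UMIs in CMZ-like cells, or 3.51 and 3.05 CPM against 1.09 and 0.935 CPM in RPC-like cells, ratios of 3.23 (1.52 to 7.01) and 3.27 (1.85 to 5.91).

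Col18a1 encodes a basement membrane collagen whose end fragment is endostatin. It had 79.6 CPM in albino and 80.4 CPM in pigmented CMZ-like cells, against 32.4 and 38.8 CPM in RPC-like cells. The ratios were 2.46 (2.14 to 2.83) and 2.07 (1.89 to 2.27). It also had 17.8 and 23.0 CPM in neurogenic-like cells, and 0.905 and 0.881 CPM in RGC-like cells. Col25a1, a transmembrane collagen, was above 2 in 1 library only, with 6.83 CPM in albino CMZ-like against 2.26 CPM in albino RPC-like cells, and 3.49 CPM against 3.16 CPM in the pigmented library.

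Among the lower genes Col23a1 held the most UMIs. This transmembrane collagen had 6.25 CPM in albino and 8.12 CPM in pigmented CMZ-like cells, against 33.3 and 37.0 CPM in RPC-like cells, ratios of 0.188 (0.127 to 0.269) and 0.219 (0.175 to 0.272). Within CMZ-like cells it was highest in cluster 12 with 11.5 and 11.1 CPM and lowest in cluster 14 with 1.81 and 5.51 CPM. It was nearly absent from RGC-like cells, with 1 albino and 6 pigmented UMIs.

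Col1a2, the α2 chain of type I collagen, had 1.56 CPM in albino and 0.698 CPM in pigmented CMZ-like cells, against 7.62 and 7.04 CPM in RPC-like cells. The ratios were 0.205 (0.0860 to 0.420) and 0.0992 (0.0421 to 0.200), on 8 UMIs in CMZ-like cells of each library. Col6a1, the α1 chain of type VI collagen, had 1.95 and 1.75 CPM in CMZ-like cells against 4.05 and 4.72 CPM in RPC-like cells, ratios of 0.483 (0.219 to 0.960) and 0.370 (0.217 to 0.600).

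The type IV chains form pairs of neighbouring genes that are transcribed away from each other. Col4a1 and Col4a2 overlap over 22 bases on chromosome 8, and encode the chains of the common basement membrane network. Col4a1 had 35.9 CPM in albino and 30.4 CPM in pigmented CMZ-like cells, against 69.5 and 78.0 CPM in RPC-like cells, ratios of 0.517 (0.439 to 0.607) and 0.389 (0.346 to 0.437). Col4a2 had 26.9 and 28.3 CPM against 50.8 and 53.5 CPM, ratios of 0.530 (0.438 to 0.638) and 0.528 (0.466 to 0.598). Both were lower in each library without passing the rule in each. The X-linked pair Col4a5 and Col4a6 lie 1308 bases apart and changed little, with 26.5 and 23.2 CPM in CMZ-like against 23.7 and 23.8 CPM in RPC-like cells for Col4a5, and 8.39 and 7.68 CPM against 9.65 and 9.44 CPM for Col4a6. The intervals of all 4 ratios of this pair include 1. Col4a3 and Col4a4 had 6 and 24 UMIs in all.

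The CMZ-like and RPC-like classes each span several clusters that differ in cell cycle genes. The direction of the Col9a1 difference held across them, but not its size. In CMZ-like clusters 6, 12 and 14 Col9a1 had 357.8, 348.6 and 327.5 CPM in the albino library, against 508.7, 439.9 and 389.0 CPM in the pigmented library. In RPC-like clusters 0, 1, 2 and 5 it had 159.9, 240.8, 158.2 and 106.7 CPM in the albino library, against 147.3, 274.3, 177.4 and 154.2 CPM in the pigmented library. The RPC-like cluster with the most Col9a1 is cluster 1, whose leading genes include Ung, Cdc6 and Mcm3 of DNA replication, and the one with the least albino Col9a1 is cluster 5, led by Ube2c, Cenpf and other genes of mitosis. Every CMZ-like cluster was above every RPC-like cluster in the same library, but not always by 2-fold. The nearest pair was CMZ-like cluster 14 (327.5 CPM albino, 389.0 CPM pigmented) and RPC-like cluster 1 (240.8 and 274.3 CPM). Col2a1 and Col11a1 were also higher in each CMZ-like cluster than in each RPC-like cluster of the same library, and Col4a1 was lower in each.

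**Figure D3:**
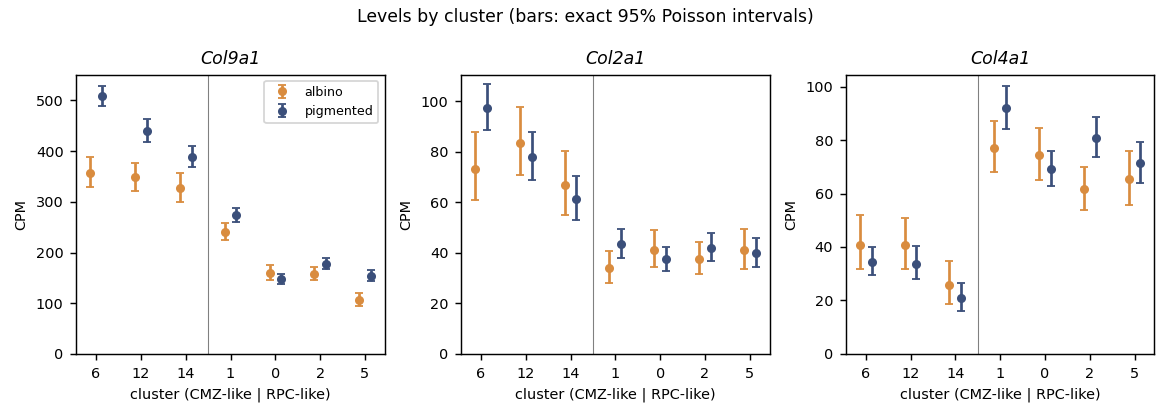
CPM of Col9a1, Col2a1 and Col4a1 in the CMZ-like clusters 6, 12 and 14 and the RPC-like clusters 1, 0, 2 and 5, for the albino and pigmented library, with exact 95% Poisson intervals. All CMZ-like points lie above the RPC-like points of the same library for Col9a1 and Col2a1, and below them for Col4a1.

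Collagen RNA was scarcer in neurogenic-like and RGC-like than in RPC-like cells. In neurogenic-like against RPC-like cells none of 19 members was higher (5.72% of all genes) and 12 were lower (9.04% of all genes). In RGC-like against RPC-like cells 1 of 20 was higher (15% of all genes) and 12 were lower (20% of all genes). The median log2 ratio of the members in RGC-like cells was -3.11 in the albino and -3.09 in the pigmented library, against -0.14 and -0.16 over all genes. The lower genes included the type IV chains (Col4a1, 1.54 and 1.32 CPM in RGC-like cells against 69.5 and 78.0 CPM in RPC-like cells), Col18a1, Col2a1, Col5a1, Col9a1, Col9a2, Col23a1 and Col25a1. Col4a2 differed between the 2 steps, with 28.0 CPM in albino and 27.9 CPM in pigmented neurogenic-like cells and 3.53 and 4.74 CPM in RGC-like cells.

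A few members did not pass the rule as lower in RGC-like cells. Col5a2 had 5.25 CPM in albino and 3.97 CPM in pigmented RGC-like cells against 5.45 and 5.48 CPM in RPC-like cells, with intervals of both ratios that include 1. Col11a1 was lower in both libraries but missed the rule in the albino one, with 4.80 and 2.86 CPM against 9.10 and 9.35 CPM. Col9a3 passed the rule in the other direction, with 26 albino and 15 pigmented UMIs, or 2.35 and 1.65 CPM against 0.622 and 0.668 CPM in RPC-like cells.

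The remaining retinal classes are small and are given as levels. Amacrine/horizontal-like cells (77 albino, 142 pigmented) had 71.1 and 38.3 CPM of Col5a2 and 61.8 and 50.7 CPM of Col4a2. Of the classes compared here it also had the highest sums of endothelial markers, 214.8 and 321.4 CPM, and of pericyte markers, 264.2 and 320.5 CPM. Of these UMIs, Cldn5 made up 94.2% and 97.2% of the endothelial and Vtn 93.0% and 97.2% of the pericyte sum, while Pecam1 had none and Cdh5 0 and 1. The mesenchyme markers summed to 35.5 and 2.67 CPM in these cells, and the part of such cells in the collagen levels was not tested. Photoreceptor-like cells (62 and 119) had at most 22.4 CPM of any member in the albino library, for Col9a1. RPE-like cells (16 and 44) had 126.3 and 294.2 CPM of Col9a1, against 169.7 and 187.0 CPM in RPC-like cells. The same RPE-like cells had 95.6 and 74.7 CPM of Col11a1, 119.5 and 79.4 CPM of Col18a1, and 99.0 and 37.4 CPM of Col25a1. They also had 88.8 and 30.4 CPM of Col8a1, a network-forming chain known from Descemet's membrane of the cornea. In albino RPE-like cells 1 cell held 50% of the Col8a1 UMIs and 1 cell held 41.4% of those of Col25a1.

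Mesenchyme-like cells held most of the interstitial collagens. In mesenchyme-like against RPC-like cells 18 of 27 members were higher (9.34% of all genes) and 4 were lower (8.27% of all genes). Col3a1, the only chain of type III collagen, had 638.1 CPM in albino and 646.3 CPM in pigmented mesenchyme-like cells, and 1 and 5 UMIs in RPC-like cells. Col1a1, the α1 chain of type I collagen, had 419.4 and 554.2 CPM, against 0.233 and 0.801 CPM in RPC-like cells. Col1a2 had 633.4 and 633.3 CPM, or 83.1-fold (67.5 to 103.3) and 90.0-fold (76.5 to 106.6) its level in RPC-like cells. The type V chains followed at 212.3 and 215.0 CPM for Col5a2 and 91.5 and 92.4 CPM for Col5a1. Col11a1 had 81.5 and 110.3 CPM, Col27a1 25.8 and 31.9 CPM, and Col25a1 42.8 and 34.0 CPM.

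FACIT and beaded filament members were also high in mesenchyme-like cells. Col12a1, which binds type I fibrils, had 60.4 CPM in albino and 96.3 CPM in pigmented mesenchyme-like cells, and 1 UMI in RPC-like cells of each library. Col14a1, another chain that binds fibrils, had 36.4 and 55.0 CPM and no UMI in RPC-like cells, which is at least 156-fold and at least 412-fold higher (against 3 UMIs per library). The type VI chains Col6a1, Col6a2 and Col6a3 had 47.5, 45.2 and 56.3 CPM in the albino and 59.2, 62.7 and 88.6 CPM in the pigmented library. Col26a1, a short secreted collagen-like chain, had 75.7 and 92.8 CPM against 1.32 and 1.60 CPM in RPC-like cells. The 4 lower members were Col9a1 (17.0 and 35.4 CPM), Col18a1 (9.38 and 15.4 CPM), Col4a5 (10.6 and 9.80 CPM) and Col4a6 (3.52 and 1.05 CPM). Col4a1 and Col4a2 passed in neither direction, with 77.4 and 81.2 CPM and 72.7 and 73.2 CPM in mesenchyme-like cells, ratios of 1.12 and 1.04 for Col4a1 and 1.43 and 1.37 for Col4a2. The class also held 940.8 and 838.8 CPM of the 12 RGC markers, against 125.5 and 98.3 CPM in RPC-like cells, and the part of RNA from retinal cells in these levels was not tested.

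The UMI ratios of some partner chains differed widely between RPC-like and mesenchyme-like cells. In RPC-like cells Col1a2 had 98 albino and 158 pigmented UMIs, against 3 and 18 UMIs of Col1a1 and 1 and 5 UMIs of Col3a1. That is 32.7 Col1a2 UMIs per Col1a1 UMI (10.9 to 161.1) in the albino and 8.78 (5.38 to 15.2) in the pigmented library, while mesenchyme-like cells had 1.51 and 1.14. The 11 mesenchyme markers together had 45 albino and 110 pigmented UMIs in the same RPC-like cells, of which Prrx2 held 27 and 48 and Prrx1 8 and 32. Foxc2 had none, Foxc1 had 1 and 0, and Lum 2 and 7. In CMZ-like cells, where Col1a2 had 8 UMIs in each library, the same markers had 70 and 84 UMIs. The part of mesenchyme RNA in the Col1a2 level was not tested. After thinning, 3.40% of albino and 3.77% of pigmented RPC-like cells had a Col1a2 UMI, against 0.283% and 0.478% of RGC-like cells, and 0.645% and 0.564% of CMZ-like cells. Unthinned shares were 7.48% and 6.13% in RPC-like, 0.535% and 0.929% in RGC-like, and 1.21% and 1.09% in CMZ-like cells. All 4 RPC-like clusters held it in each library, at 5.47, 9.01, 8.36 and 7.34 CPM in clusters 0, 1, 2 and 5 of the albino library and 5.25, 10.7, 8.26 and 3.89 CPM in those of the pigmented library.

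Type VI collagen showed a like difference. RPC-like cells had 52 albino and 106 pigmented UMIs of Col6a1, 17 and 22 of Col6a2, and 1 and 5 of Col6a3. Mesenchyme-like cells had 0.844 and 0.668 Col6a1 UMIs per Col6a3 UMI. For type IV, Col4a2 UMIs per Col4a1 UMI were 0.731 and 0.686 in RPC-like cells, 2.29 (1.27 to 4.33) and 3.58 (1.86 to 7.47) in RGC-like cells, and 4 (1.97 to 8.97) and 4.07 (2.24 to 7.91) in amacrine/horizontal-like cells. The RGC-like ratios rest on 39 and 43 UMIs of Col4a2 and 17 and 12 UMIs of Col4a1.

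**Figure D4:**
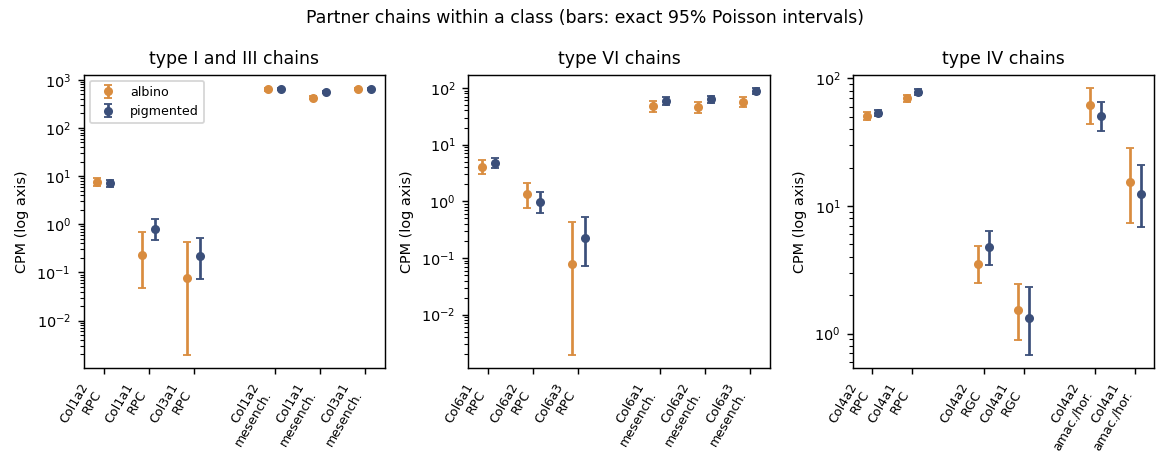
CPM of partner chains within a class on a log axis, with exact 95% Poisson intervals, for the albino and pigmented library. Col1a2 stands far above Col1a1 and Col3a1 in RPC-like but not in mesenchyme-like cells, Col6a1 stands above Col6a3 in RPC-like cells, and Col4a2 stands above Col4a1 in RGC-like and amacrine/horizontal-like but not in RPC-like cells.

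The surface ectoderm-like class is 1 cluster of 52 albino and 2 pigmented cells, and its levels need care. Its leading genes were Krt15, Cxcl14 and Krt14, but the albino cells had 523.6 CPM of ectoderm markers beside 4153 CPM of RGC, 2129 CPM of neurogenic, 1606 CPM of RPC and 171.7 CPM of macrophage markers. Ectoderm markers summed higher still, to 737.4 CPM, in albino RPE-like cells, where Krt18 held 91.2% of their UMIs and Krt15, Krt14 and Krt5 had none. The albino cells had a median of 45070 UMIs, against 10380 in RPC-like cells, and 10 of the 12 ectoderm markers had no UMI in the 2 pigmented cells. The part of RNA from retinal or other cells in the following levels was not tested. By the rule over both libraries 2 of 19 members, Col1a1 and Col26a1, were higher than in RPC-like cells (2.59% of all genes). Another 2, Col4a1 and Col4a2, were lower (6.2% of all genes). However, all 15 pigmented Col1a1 UMIs came from 1 cell. Pigmented ectoderm-like cells held only 1 UMI of Col26a1, 2 of Col4a1 and 1 of Col4a2. Their pigmented ratios were 8.239 (0.203 to 48.93), 0.3386 (0.04097 to 1.225) and 0.2468 (0.006243 to 1.378). These intervals include 1, so the pigmented cells cannot decide these calls. In albino cells Col9a1 had 67.7 CPM against 169.7 CPM in RPC-like cells, Col1a1 14.5 against 0.233 CPM, and Col4a1 15.1 against 69.5 CPM. Col17a1, the hemidesmosome collagen of epidermis, had 13 UMIs, or 4.10 CPM against 1.32 CPM.

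Between the libraries, the albino over pigmented ratios of the 17 members measured in CMZ-like cells lay between 0.746 and 1.96. A gene was counted where its albino over pigmented ratio was at least 1.5 in either direction. In CMZ-like cells 1 of 17 members was higher in albino cells (3.06% of all genes) and none was lower (4.76% of all genes). The higher one was Col25a1, with 6.83 CPM in albino and 3.49 CPM in pigmented CMZ-like cells, a ratio of 1.96 (1.21 to 3.16) on 35 and 40 UMIs. It was higher in albino cells in each of the 3 CMZ-like clusters. With classes taken from marker scores of single cells (292 albino and 687 pigmented CMZ-like cells), 4 members were lower in albino CMZ-like cells. The share of all genes under that setting is not given. Col9a1 stayed inside the rule at 344.7 CPM in albino and 454.0 CPM in pigmented CMZ-like cells, with a ratio of 0.759 (0.719 to 0.802), and was lower in albino cells in each of the 3 clusters. Its share of thinned CMZ-like cells with a UMI differed in the same direction, 68.4% (62.9 to 73.5) in albino and 78.3% (75.1 to 81.3) in pigmented cells. In cells with Xist and no Y-linked UMI the log2 ratio of Col9a1 was -0.33, against -0.40 in all CMZ-like cells. Col18a1, Col2a1, Col11a1, Col4a1 and Col4a2 had ratios of 0.991, 0.920, 1.16, 1.18 and 0.953, with intervals that include 1.

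In RPC-like cells 1 of 23 members was higher in albino cells (2.15% of all genes) and 1 was lower (3.15% of all genes), both on few UMIs. These were Col22a1 with 13 albino and 15 pigmented UMIs and an interval that includes 1 (0.663 to 3.41), and Col1a1 with 3 and 18 UMIs. Col9a1 had a ratio of 0.907 (0.861 to 0.956) there. In RGC-like cells 1 of 11 was higher (3.22% of all genes), Col11a1 with 4.80 CPM in albino and 2.86 CPM in pigmented cells, and 1 was lower (3.69% of all genes), Col2a1 with 10 and 18 UMIs and an interval that includes 1. With doublet calls kept, 10 members were lower in albino RGC-like cells, then 721 albino and 620 pigmented cells. The share of all genes under that setting is not given, so this shift is not read as particular to collagens. The X-linked Col4a5 and Col4a6 had ratios of 0.998 (0.864 to 1.15) and 1.02 (0.812 to 1.28) in RPC-like cells.

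Mesenchyme-like cells differed more. Of 27 members 1 was higher in albino cells (6.19% of all genes) and 9 were lower (7.51% of all genes). The higher one was Col7a1, on 11 albino and 9 pigmented UMIs and with an interval that includes 1 (0.771 to 5.59). The lower ones were the type IX chains Col9a1, Col9a2 and Col9a3, and Col2a1, Col6a3, Col12a1, Col14a1, Col18a1 and Col23a1. Col18a1 had 16 albino and 44 pigmented UMIs and an interval that includes 1 (0.321 to 1.10). Col9a2 rests on 10 and 45 UMIs. The median log2 ratio of the members was -0.32, against 0.00079 over all genes, and 22 of 27 members were below 1. Col12a1 had 60.4 CPM in albino and 96.3 CPM in pigmented cells, a ratio of 0.628 (0.495 to 0.790), and Col6a3 had 56.3 and 88.6 CPM, a ratio of 0.636 (0.497 to 0.807). Col9a3 had 5 and 54 UMIs, and 1 pigmented cell held 37.0% of its UMIs. Col3a1, Col1a2, Col5a1 and Col5a2 had ratios of 0.987, 1.0, 0.990 and 0.988, while Col1a1 had 0.757 (0.692 to 0.827).

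The lower genes were not lower in every mesenchyme-like cluster. Cluster 13 had 42.4 CPM of Col6a3 in albino and 86.6 CPM in pigmented cells, whereas cluster 23 had 100.4 and 99.8 CPM. Col2a1 had 10.0 and 34.5 CPM in cluster 13, and 53.9 and 49.9 CPM in cluster 23. Col12a1 was lower in albino cells in both clusters, with 51.7 and 80.5 CPM in cluster 13, and 88.2 and 187.8 CPM in cluster 23. Haemoglobin RNA summed to 73.9 CPM in albino and 1.05 CPM in pigmented cells of the same class. Only 0.787% of these albino cells and 0% of the pigmented cells held over 2 haemoglobin UMIs. Without cells that held over 2 haemoglobin UMIs 8 members were lower. Among cells with Xist and no Y-linked UMI 3 were lower, with 2 of them among the 9. Over all classes, that choice of cells kept 96.07% of albino but only 29.28% of pigmented cells. The share of all genes under it is not given, and whether the lower count depends on sex was not tested.

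**Figure D5:**
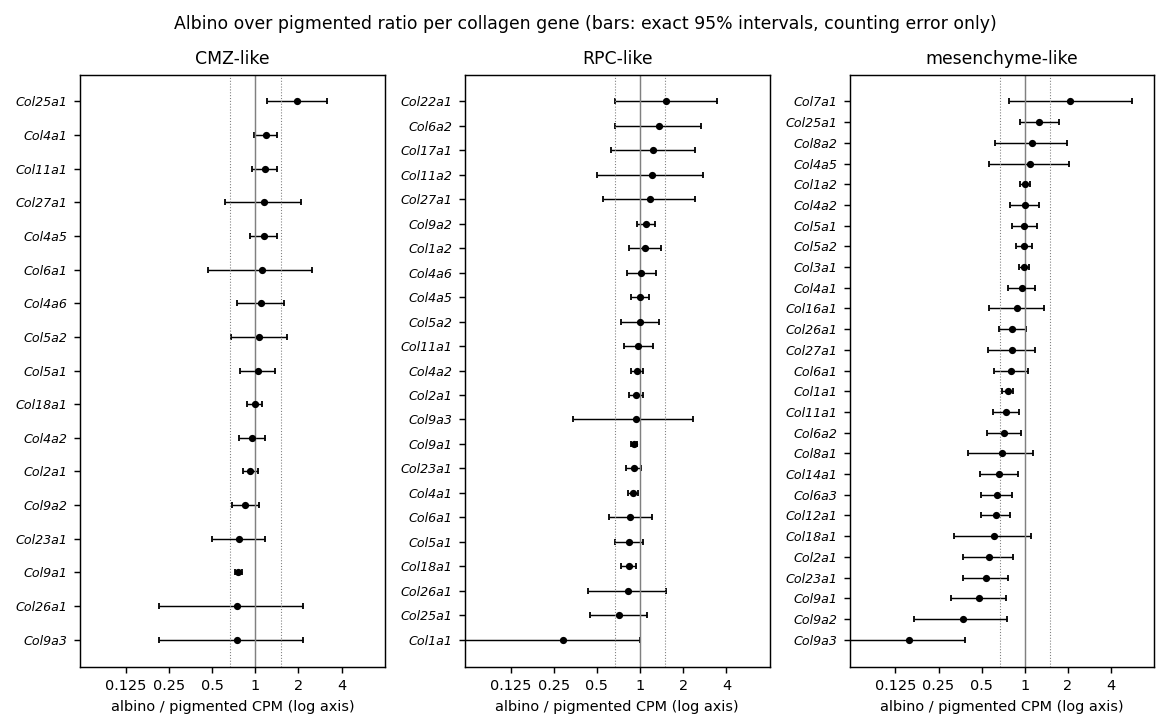
Albino over pigmented CPM ratio on a log axis for each collagen gene with at least 20 UMIs in CMZ-like, RPC-like and mesenchyme-like cells, with exact 95% intervals for counting error. Dotted lines mark 1.5-fold in either direction. Most retinal ratios lie near 1, and 22 of 27 mesenchyme-like ratios lie below 1.

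Genes that act on collagens were counted by the same rules, from lists chosen with results of these data known. Of 26 measured genes for collagen synthesis, folding and processing, 1 was higher in CMZ-like than in RPC-like cells and none was lower, against 2.32% and 2.73% of all genes, so these counts are near the background. The higher one was Loxl3, a lysyl oxidase that crosslinks collagen, with 5.66 CPM in albino and 4.45 CPM in pigmented CMZ-like against 2.02 and 1.78 CPM in RPC-like cells. Serpinh1, the collagen chaperone HSP47, had 297.1 and 330.7 CPM against 233.3 and 248.4 CPM, and the difference is under the rule. None of 3 measured collagen receptors passed the rule. Of 9 other basement membrane genes 1 was higher (2.32% of all genes), Lama5, a laminin chain, with 5.46 and 6.63 CPM against 1.01 and 1.38 CPM. Of 6 other vitreous and fibril-associated genes 2 were higher (2.32% of all genes) and 1, Matn2, was lower (2.73% of all genes). Vcan, the proteoglycan versican, had 62.1 and 57.8 CPM in CMZ-like against 9.34 and 9.80 CPM in RPC-like cells. Optc, the vitreous proteoglycan opticin, had 9.95 and 11.4 CPM against 0.545 and 0.757 CPM. Loxl3, Lama5, Optc, Matn2 and Serpinh1 were named after their values were seen. In mesenchyme-like cells 14 of 26 synthesis genes were higher than in RPC-like cells (9.34% of all genes), and in RGC-like cells 11 of 26 were lower (20% of all genes).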

How the data were processed

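Per the labels' protocols, each library was a droplet-based UMI library of sorted cells. The deposited files are UMI counts of genes in cell barcodes, not normalized by the authors. The submitters' processing notes give Cell Ranger 2.1.1 with mm10, whereas 5.0.1 stands in the header of the matrices. The lowest barcodes had 501 (albino) and 500 (pigmented) UMIs, and the sources used here do not state how barcodes were chosen.

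A cell was kept if it had 500 genes or more and no more than 10% of its UMIs were mitochondrial. Scrublet then removed 50 albino (1.36%) and 211 pigmented (3.465%) barcodes as doublets. Both libraries were clustered together (2000 variable genes without collagens, 30 components, 15 neighbours, Leiden resolution 1) into 28 clusters with Scanpy 1.11.5. A cluster took the class whose markers led the next class by at least 0.3 log2 units, with at least 3 markers detected. A difference between classes may therefore depend on these rebuilt names. The alternative that keeps doublet calls covers the doublet filter.

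UMIs were summed per class and library and expressed as CPM with exact Poisson 95% intervals. Ratios have conditional exact intervals. PCR duplicates are collapsed by UMIs, and intervals and floors (3 counts) cover counting error only. Shares of cells were thinned to 5800 UMIs, which left out 386 albino and 545 pigmented cells, with exact Clopper-Pearson intervals. Coordinates are GRCm38, and all 44 genes matched the annotation. Among the 36 genes with at least 20 UMIs, 8 overlap exons of another gene, and the sources used here do not say whether counting used strand.

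Members described are those with at least 200 UMIs or past the 2-fold rule between CMZ-like and RPC-like cells, and other listed genes those with at least 500 UMIs past that rule. Members and lists were chosen with earlier results of these data known.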

Additional observations from a re-analysis of the deposited data

How the results depend on the processing

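No paired analysis was possible because each group is 1 library. The 19 counts of members were recomputed under 15 alternatives, of which the cells with Xist and no Y-linked UMI (the sex alternative) were added after seeing the data. Of 283 values 231 stayed within 1.5 times the reported count and 52 did not, and most of those 52 are small counts. Under the sex alternative the ectoderm counts could not be computed, since it left no pigmented ectoderm-like cell. Shares of all genes under the alternatives are not given, so no shift is read as particular to collagens. The causes of the shifts were not tested.

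In CMZ-like against RPC-like cells the higher count was 2 with collagens in the clustering, and the lower count 5 with at least 1000 genes per cell. Over the alternatives the Col9a1 ratio ran between 1.85 and 2.43 in the albino and between 1.99 and 2.92 in the pigmented library, so its place past 2 is not fixed. That of Col18a1 ran between 2.32 and 2.69 and between 1.94 and 2.18, and that of Col23a1 between 0.172 and 0.242 and between 0.194 and 0.232.

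In RGC-like against RPC-like cells the higher count (1) was 0 with classes from marker scores, a minimum of 50 UMIs, and the sex alternative. For ectoderm-like cells the higher count (2) was 1 with doublet calls kept, marker scores or equal weights per cell, and 0 with a minimum of 50 UMIs or the top cell left out. The lower count (2) was 4 without cell cycle genes or with doublet calls kept, and 1 with the top cell left out.

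Between libraries, the higher count in CMZ-like cells (1) was 2 with collagens in or cell cycle genes out of the clustering and with equal weights, and 5 with a minimum of 10 UMIs. The lower count (0) was 4 with marker scores and 1 with a minimum of 10 UMIs. The Col9a1 log2 ratio in CMZ-like cells stayed between -0.40 and -0.31. In RPC-like cells the higher count (1) was 2 with collagens in or cell cycle genes out of the clustering, at least 1000 genes, doublet calls kept, marker scores, a minimum of 10 UMIs or equal weights, and 0 with a minimum of 50 UMIs, the top cell left out or the sex alternative. The lower count (1) was 3 with collagens in the clustering, and 0 without cell cycle genes, at resolution 2, with a minimum of 50 UMIs, the top cell left out or the sex alternative.

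In RGC-like cells the higher count (1) was 2 with equal weights, the top cell left out or the sex alternative. The lower count (1) was 10 with doublet calls kept, 3 with marker scores, 4 with a minimum of 10 UMIs, and 0 with a minimum of 50 UMIs or the sex alternative. In mesenchyme-like cells the higher count (1) was 0 without cell cycle genes, with at least 1000 genes, doublet calls kept, marker scores, a minimum of 50 UMIs or the top cell left out, and 2 with a minimum of 10 UMIs or equal weights. The lower count (9) was 3 with the sex alternative, which over all classes kept 96.07% of albino but only 29.28% of pigmented cells.

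Among 23 named members, log2 ratios reversed in 2 cases. Pigmented Col1a1 in RGC-like over RPC-like cells was 0.78 with doublet calls kept, and pigmented Col4a6 in mesenchyme-like over RPC-like cells was 0.065 with the sex alternative. The Col4a6 value rests on the 24 pigmented mesenchyme-like cells left under that alternative. Depth limits genes with few UMIs, above all in RPE-like and ectoderm-like cells.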

Other observations

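Cluster 21, which stayed unnamed because its cells are shallow (median 1601 UMIs, 39 albino and 57 pigmented cells, led by Gm26917), had the highest Col9a1 level of any cluster, with 548.4 CPM in the albino and 582.0 CPM in the pigmented library. It also had 163.6 and 112.6 CPM of Col4a2.

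Unnamed cluster 10 (109 albino and 227 pigmented cells), led by haemoglobin, lens crystallin and Acta2 genes, had 57.8 CPM of Col4a1 in the albino and 167.7 CPM in the pigmented library, and 64.6 and 118.9 CPM of Col4a2. In each library 1 cell held 50% (albino) and 49.9% (pigmented) of the Col4a1 UMIs, and 1 cell 42.6% and 37.5% of those of Col4a2. Without the top cell Col4a1 had 30.2 CPM in the albino and 89.7 CPM in the pigmented library, and Col4a2 38.8 and 79.3 CPM. Its markers belong to several cell types, so no class was given to it. Over all unnamed cells, haemoglobin summed to 0.391 CPM in the albino and 847.9 CPM in the pigmented library. Only 0% of the albino and 0.173% of the pigmented unnamed cells held over 2 haemoglobin UMIs. The haemoglobin lead is therefore not read as a trait of most cells of cluster 10.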
